A study of Mus musculus with 6 samples.

Results

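The abundant nuclear long non-coding RNAs (lncRNAs) Malat1 and Neat1 and 7 lncRNAs that host small nucleolar RNAs (snoRNAs), Gas5, Snhg1, Snhg3, Snhg5, Snhg6, Snhg8 and Snhg12, were followed in mouse liver after vertical sleeve gastrectomy (VSG). These 9 genes were chosen by name out of 55385 genes in the deposited table, of which 13128 are lncRNAs in GENCODE M21, by a rule that uses no measured value but was written with earlier results of these data known. Poly(A) RNA was sequenced with strand-specific libraries from the livers of 6 male wild-type C57BL/6 mice, 3 in which VSG had narrowed the stomach to a sleeve and 3 with a sham procedure. All mice were 6 to 8 weeks old when a high-fat diet began, stayed on it for 10 weeks before the operation, and received the same diet for 12 weeks after it, so the diet is shared by both groups. The comparison asks which of these RNAs differ in the liver between VSG-operated and sham-operated obese mice. Each library held 22804397 to 24191778 counts, and the libraries are named sham 1 to 3 and VSG 4 to 6.

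Malat1 stays in nuclear speckles, the bodies that store splicing factors, and Neat1 is the RNA scaffold on which paraspeckles are built. The 7 host lncRNAs carry snoRNAs in their introns. The snoRNAs are released from the introns after splicing and guide chemical modification of ribosomal RNA or, for a few, its cleavage. The spliced host RNA is typically a target of nonsense-mediated decay, which breaks down RNAs with early stop codons during translation, and many host genes start with the pyrimidine-rich 5′ terminal oligopyrimidine (TOP) tract that ribosomal protein genes also carry. Gas5 was named for its rise in growth-arrested cells.

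After VSG, 5 of the 9 lncRNAs were higher at an adjusted p under 0.05 (edgeR quasi-likelihood test, Benjamini-Hochberg adjustment over all genes tested), none was lower, and 4 did not pass the test. Malat1, Gas5, Snhg1, Snhg5 and Snhg6 rose, by log2 fold changes from 0.45 to 0.82, while Neat1, Snhg3, Snhg8 and Snhg12 did not pass. The share of all 14454 tested genes with such a call was 14.7% in either direction, 6.79% for higher and 7.87% for lower, and among the 1161 lncRNAs tested it was 10.3% in either direction. The median log2 fold change was 0.67 over the 9 genes, 0.03 over all genes tested and 0.23 over the lncRNAs tested. In 6 of the 9 genes every VSG library lay above every sham library, and in none did every VSG library lie below. Over all genes tested, 39.7% had groups without overlap, and 19.8% had the VSG group entirely above. The mitochondrial share of counts also differed without overlap, at 5.59% to 6.58% in sham and 4.14% to 5.01% in VSG libraries, and its part in the changes was not tested. In bulk liver, a change in the share of a cell type and a change in RNA per cell cannot be told apart.

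**Figure D1:**
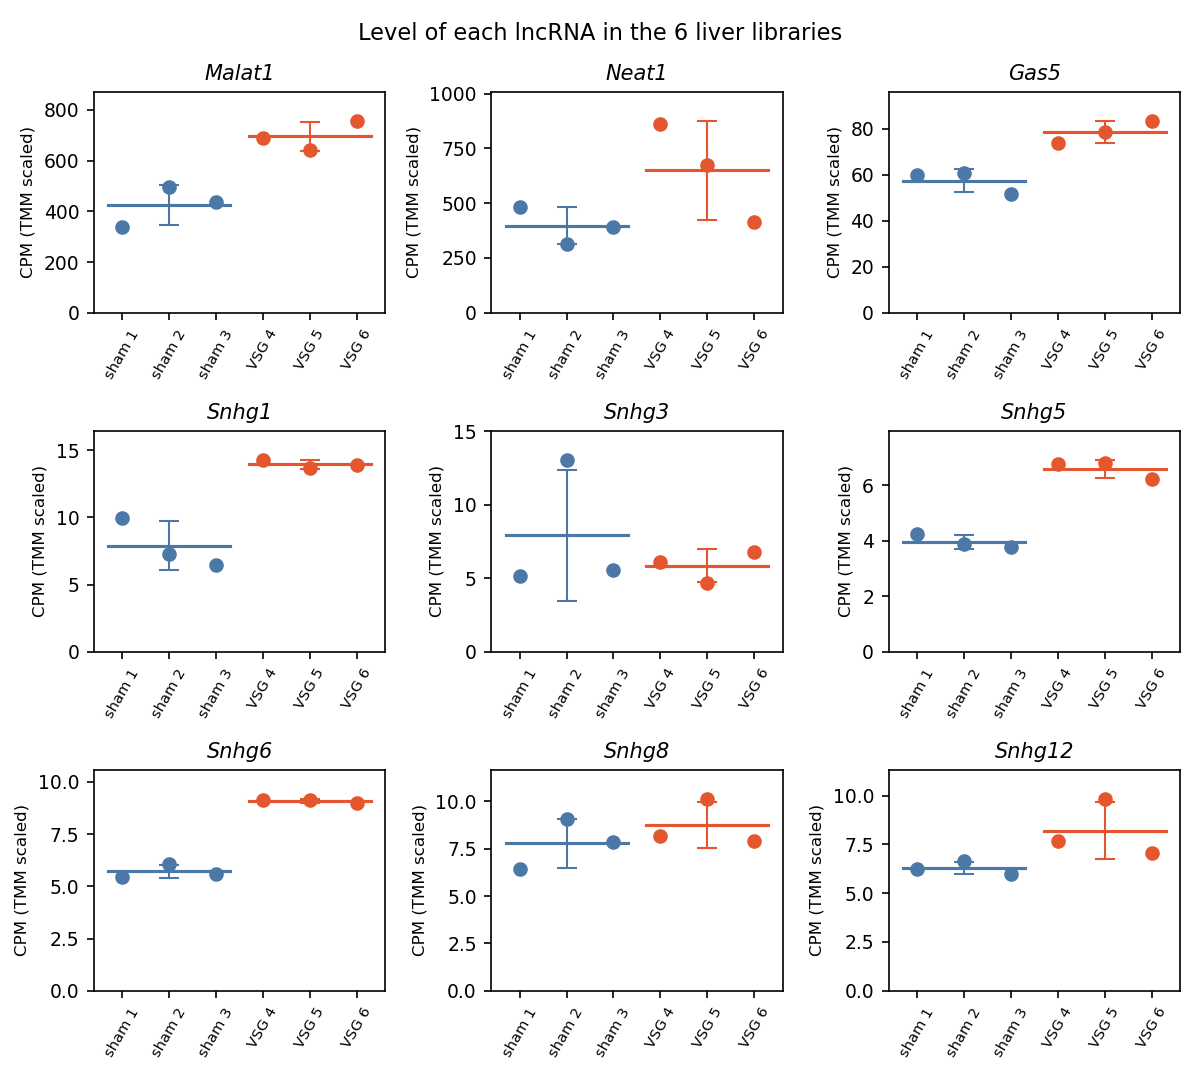
Level of each of the 9 lncRNAs in the 6 liver libraries, in CPM (counts scaled to library size) with TMM factors, which correct for library composition, with sham in blue and VSG in orange. Lines show group means and bars the SD of 3 libraries. The groups do not overlap for Malat1, Gas5, Snhg1, Snhg5, Snhg6 and Snhg12, and the sham 2 library stands alone at the top of the Snhg3 panel.

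The calls depended on having all 6 libraries. Of the 5 calls, between 0 and 3 were left when 1 library was removed, with 0 left without sham 3 and 0 left without VSG 6. The calls over all genes tested went from 2118 of 14454 to 159 of 14839 without sham 3 and 210 of 14781 without VSG 6. Scaling by total counts alone left 1 call, that of Malat1, and keeping every gene with at least 1 count left 3, those of Snhg1, Snhg5 and Snhg6. Over all genes, total-count scaling gave 1998 calls of 14454, and keeping every gene with at least 1 count gave 2306 of 27530. The direction of the log2 fold change was the same in all 14 alternative analyses for each lncRNA other than Snhg3. Total-count scaling also moved the median of all genes from 0.03 to -0.11 on the log2 scale, so the fold changes of all members were lower with it.

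**Figure D2:**
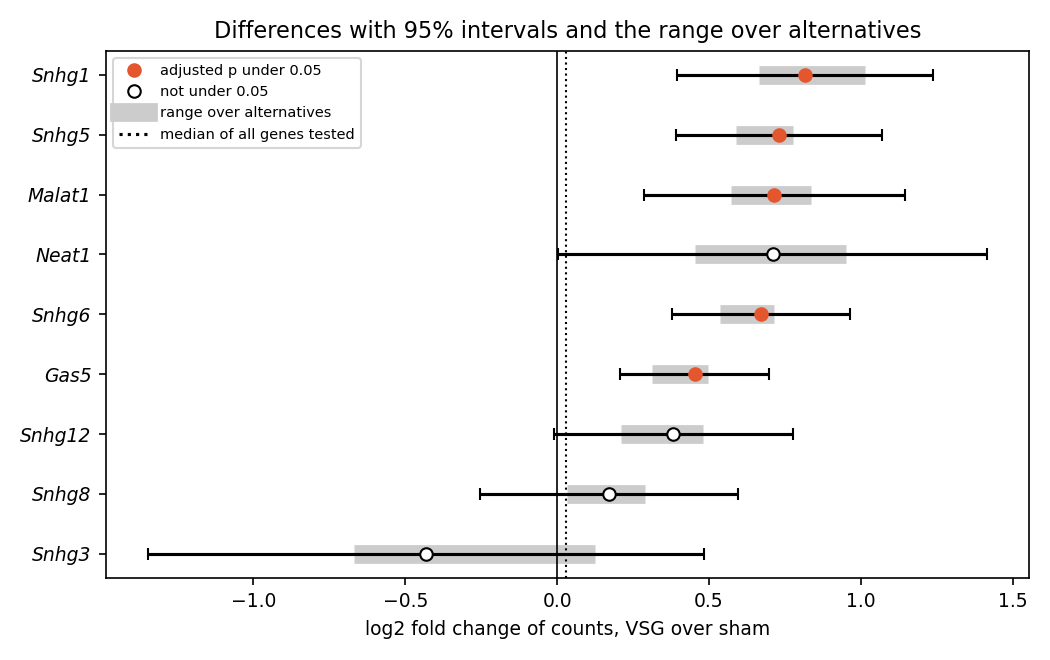
Log2 fold change of counts, VSG over sham, for each lncRNA with its 95% confidence interval as a black bar. Filled points have an adjusted p under 0.05, gray bands give the range over 14 alternative analyses, and the dotted line is the median of all genes tested. The gray band crosses 0 for Snhg3 only, and the intervals of Snhg3, Snhg8 and Snhg12 include 0.

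Malat1 and Neat1 are each counted as a single exon over the whole gene span. Genes annotated as misc_RNA lie inside these exons on the same strand. They are Gm27694 (86 bases) in Malat1, and Gm27533 (152 bases), Gm27505 (110 bases) and Gm28006 (122 bases) in Neat1. Malat1 (ENSMUSG00000092341.3) is a lincRNA gene at chr19:5795690-5802672 on the minus strand of GRCm38, and the whole span of 6983 bases is exonic. Neat1 (ENSMUSG00000092274.3) lies on the same strand at chr19:5824708-5845478, with all 20771 bases exonic, and 22035 bases separate the genes. The ends of both RNAs are shown because they bear on poly(A) selection. The 3′ end of nuclear Malat1 is not polyadenylated but made by cleavage before a tRNA-like RNA, mascRNA, and is protected by a triple helix that includes a genome-encoded A-rich tract. The short form of Neat1 ends with a poly(A) signal, while the long form that builds paraspeckles ends in another such triple helix. The Malat1 sequence below is at chr19:5795924-5796041 and gives 60 bases before mascRNA in lower case and the 58 bases of mascRNA, as placed by RefSeq, in capitals. Of the last 20 bases before mascRNA, 16 are A. The Neat1 sequence is at chr19:5842307-5842366 and gives the last 60 bases of the annotated short transcript, with the poly(A) signal AATAAA in capitals.
Malat1 end: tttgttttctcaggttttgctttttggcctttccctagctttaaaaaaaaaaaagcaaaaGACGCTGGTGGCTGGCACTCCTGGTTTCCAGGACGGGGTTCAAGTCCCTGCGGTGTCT
Neat1 short end: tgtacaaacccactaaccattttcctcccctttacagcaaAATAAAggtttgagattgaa
The annotated short transcript Neat1-202 has 3004 bases, which is 14.5% of the counted exon length of Neat1. The counts of both forms fall in 1 gene, so the forms were not separated here.

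Malat1 measured 340, 495 and 437 CPM in sham 1, 2 and 3, and 687, 643 and 757 CPM in VSG 4, 5 and 6. Every VSG library lay above every sham library, with sham 1 the lowest. The sham mean was 424 ± 78.5 CPM and the VSG mean 696 ± 57.2 CPM (SD, n = 3 each). Malat1 rose by a log2 fold change of 0.71 (SE 0.181, 95% confidence interval 0.29 to 1.14, adjusted p = 0.0439), which is 1.64 times on the linear scale. Leaving out any single library took the adjusted p above 0.05, to between 0.0506 without VSG 5 and 0.153 without sham 3. Keeping every gene with at least 1 count gave 0.0528, and DESeq2 gave 0.00261.

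Neat1 measured 484, 315 and 393 CPM in the 3 sham libraries and 862, 674 and 413 CPM in the 3 VSG libraries. VSG 6 lay below sham 1, so the groups overlapped, and the SD of the VSG group was 225 CPM around a mean of 650 CPM, against 84.5 CPM around 397 CPM in sham. The log2 fold change was 0.71 (SE 0.297, 95% confidence interval 0.0029 to 1.42, adjusted p = 0.147). It did not pass in any of the 14 alternatives, and without VSG 6 it was 0.95 with an adjusted p of 0.0961. Thus Neat1 and Malat1 had the same point estimate, and the spread among libraries differed. The ratio of Neat1 to Malat1 CPM was 1.43, 0.637 and 0.899 in sham 1 to 3 and 1.25, 1.05 and 0.546 in VSG 4 to 6. The lowest and the highest of these ratios came from different groups, and the means of 0.987 ± 0.402 and 0.950 ± 0.364 (SD, n = 3 each) lay within the spread of the libraries. Across the 6 libraries the centered log2 levels of the pair differed by a root mean square of 0.497, more than between Malat1 and Snhg6 (0.148).

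Gas5 (ENSMUSG00000053332.13, a processed transcript at chr1:161034422-161038539, plus strand) was the most abundant of the 7 hosts per length. Its level was 59.8, 60.8 and 51.7 CPM in the sham libraries and 73.7, 78.7 and 83.3 CPM in the VSG libraries. No VSG library fell within the sham range. The mean went from 57.4 ± 4.96 to 78.6 ± 4.81 CPM (SD, n = 3 each), and Gas5 rose by a log2 fold change of 0.45 (SE 0.103, 95% confidence interval 0.21 to 0.70, adjusted p = 0.0339). Removing any 1 library gave adjusted p-values between 0.0524 (without VSG 4) and 0.139 (without sham 3). With total-count scaling the log2 fold change was 0.31 and the adjusted p 0.135, and with every gene of at least 1 count the adjusted p was 0.0696.

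Snhg1 (ENSMUSG00000108414.1, chr19:8723475-8726443, plus strand), whose introns carry 8 snoRNAs, measured 9.97, 7.31 and 6.46 CPM in sham and 14.3, 13.7 and 13.9 CPM in VSG livers. The VSG libraries lay close together and above all sham libraries. Snhg1 rose from 7.91 ± 1.83 to 13.95 ± 0.316 CPM (SD, n = 3 each), a log2 fold change of 0.82 (SE 0.177, 95% confidence interval 0.40 to 1.24, adjusted p = 0.0306). The adjusted p remained under 0.05 without sham 1 (0.0235) and without VSG 5 (0.0438), and lay above it without sham 2 (0.0879), sham 3 (0.115), VSG 4 (0.0678) or VSG 6 (0.0969). Under total-count scaling it was 0.0995.

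Snhg5 (ENSMUSG00000097195.10), the host of Snord50a and Snord50b, measured 4.25, 3.88 and 3.76 CPM in sham and 6.74, 6.80 and 6.20 CPM in VSG livers. Group means were 3.96 ± 0.253 and 6.58 ± 0.329 CPM (SD, n = 3 each), and no libraries overlapped. Snhg5 rose by a log2 fold change of 0.73 (SE 0.143, 95% confidence interval 0.39 to 1.07, adjusted p = 0.0240). Only without VSG 5 did the adjusted p stay under 0.05 (0.0421) among the fits that left out a library, and in the others it reached up to 0.114 (without sham 3). Total-count scaling gave 0.109. The gene model of the count table spans chr9:88495268-88523562 on the minus strand with 3634 counted bases, while GENCODE M21 places Snhg5 at chr9:88521050-88522929, so reads outside the M21 gene could also enter the count.

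Snhg6 (ENSMUSG00000098234.7, chr1:9941959-9944118, minus strand), the host of Snord87, showed the smallest adjusted p. It measured 5.47, 6.08 and 5.58 CPM in sham and 9.14, 9.15 and 8.97 CPM in VSG livers. The libraries of each group clustered tightly, and the gap between the means was larger than either SD. Snhg6 rose from 5.71 ± 0.324 to 9.09 ± 0.102 CPM (SD, n = 3 each), with a log2 fold change of 0.67 (SE 0.123, 95% confidence interval 0.38 to 0.96, adjusted p = 0.0211). Under the removal of 1 library, the adjusted p was under 0.05 without sham 2 (0.0496), VSG 4 (0.0492) or VSG 5 (0.0344) and above it without sham 1 (0.0565), sham 3 (0.103) or VSG 6 (0.0772). Total-count scaling gave 0.0776. On the opposite strand, 127 bases of its exons overlap those of Mcmdc2, which had 19 counts over all 6 libraries.

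Snhg12 (ENSMUSG00000086290.9, chr4:132308623-132311024, plus strand) measured 6.24, 6.62 and 6.00 CPM in sham and 7.69, 9.83 and 7.06 CPM in VSG livers. The groups did not overlap, but VSG 5 stood above the other VSG libraries. The log2 fold change was 0.38 (SE 0.165, 95% confidence interval -0.01 to 0.78, adjusted p = 0.157), and it was 0.21 without VSG 5. Snhg8 (ENSMUSG00000104960.1, chr3:123507552-123508404, minus strand), the host of Snora24, measured 6.43, 9.05 and 7.86 CPM in sham and 8.19, 10.1 and 7.92 CPM in VSG livers. Its groups overlapped, and its log2 fold change was 0.17 (SE 0.179, 95% confidence interval -0.25 to 0.60, adjusted p = 0.525). For both genes the interval leaves room for a change of the size seen in Gas5.

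Snhg3 (ENSMUSG00000085241.7, chr4:132348014-132353686, minus strand), the host of the H/ACA snoRNAs Snora73a and Snora73b, was the only member with a negative estimate. It measured 5.17, 13.1 and 5.55 CPM in sham and 6.11, 4.66 and 6.82 CPM in VSG livers. Sham 2 stood far above the other 5 libraries, which lay between 4.66 and 6.82 CPM. The log2 fold change was -0.43 (SE 0.385, 95% confidence interval -1.35 to 0.48, adjusted p = 0.456), and without sham 2 it was 0.12 (adjusted p = 0.732). The same library was high in both snoRNA genes inside Snhg3. Snora73b gave 10, 23 and 4 counts for sham 1 to 3 and 10, 7 and 8 for VSG 4 to 6, and Snora73a gave 2, 6 and 1 for sham 1 to 3 and 1 for each VSG library. Snhg3 shares 135 exon bases with Rcc1 on the same strand, and Rcc1, a regulator of the nuclear GTPase Ran, measured 6.76, 6.53 and 6.31 CPM in the sham libraries, with no excess in sham 2. Another 705 exon bases lie opposite the lincRNA gene Gm17300.

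**Figure D3:**
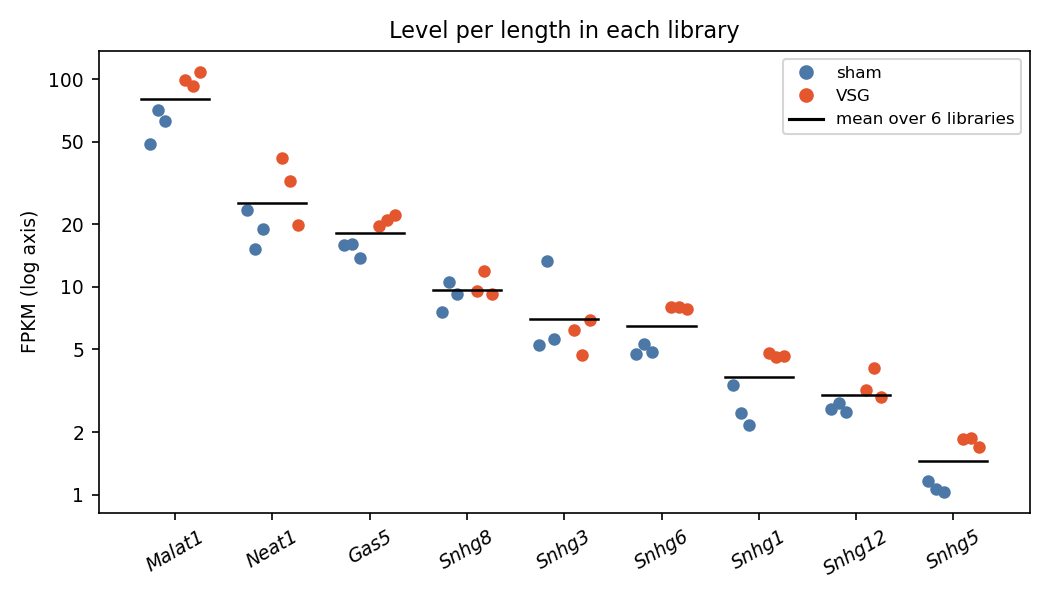
Level per length of each lncRNA in FPKM (log axis) in the sham (blue) and VSG (orange) libraries, with the mean over 6 libraries as a line, in order of that mean. Malat1 lies above Neat1 in all 6 libraries, and Snhg3 lies above Snhg6 in the 3 sham libraries and below it in the 3 VSG libraries.

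On the FPKM scale, which divides each scaled count by the exon length in the table, the mean level over 6 libraries fell from 80.2 for Malat1 to 25.2 for Neat1, 18.1 for Gas5, 9.69 for Snhg8, 6.99 for Snhg3, 6.45 for Snhg6, 3.68 for Snhg1, 3.01 for Snhg12 and 1.45 for Snhg5. Malat1 ranked 4 and Neat1 16 by mean FPKM among the lncRNAs tested, Gas5 22, and Snhg5 290. Malat1 was above Neat1, Gas5 above Snhg8, Snhg6 above Snhg1, and Snhg12 above Snhg5 in all 6 libraries. The order of Neat1 and Gas5 held in 4 of 6 libraries, that of Snhg8 and Snhg3 in 5, that of Snhg3 and Snhg6 in 3, and that of Snhg1 and Snhg12 in 4. The order of some pairs split by group. Snhg3 was above Snhg6 in all 3 sham libraries and below it in all 3 VSG libraries, and Snhg1 was above Snhg12 in all 3 VSG libraries and in 1 of 3 sham libraries. The exon lengths take in annotated transcripts with retained introns. In Snhg1, Snhg8 and Snhg12 the counted exons cover 100% of the gene and in Gas5 91.3%, so FPKM divides by intron bases as well in these genes. By contrast, 17.4% of Snhg3 and 53.1% of Snhg6 is counted. For Snhg5 the length used, 3634 bases, exceeds the 1880 bases of the whole M21 gene, so its FPKM and its last place depend on the gene model of the table. For Neat1 the length used is 20771 bases, and the short transcript has 14.5% of that length. The FPKM of Neat1 and its place below Malat1 thus also depend on the gene model. In CPM, Neat1 was above Malat1 in sham 1, VSG 4 and VSG 5, and below it in sham 2, sham 3 and VSG 6.

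As a share of all counts, the 9 lncRNAs together made up 0.0847% to 0.105% in sham libraries and 0.117% to 0.162% in VSG libraries. The mean share was 0.0966% ± 0.0107 in sham and 0.141% ± 0.0229 in VSG livers (SD, n = 3 each), and no libraries overlapped. Malat1 and Neat1 supplied most of it, at 0.0865% of counts in sham and 0.129% in VSG livers on average. Among the counts of lncRNA genes alone, the 9 genes held 8.18% to 15.3% in sham and 18.1% to 23.0% in VSG libraries. Sham 2 had the lowest of these shares and also the highest lncRNA share, 1.03% of all counts.

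**Figure D4:**
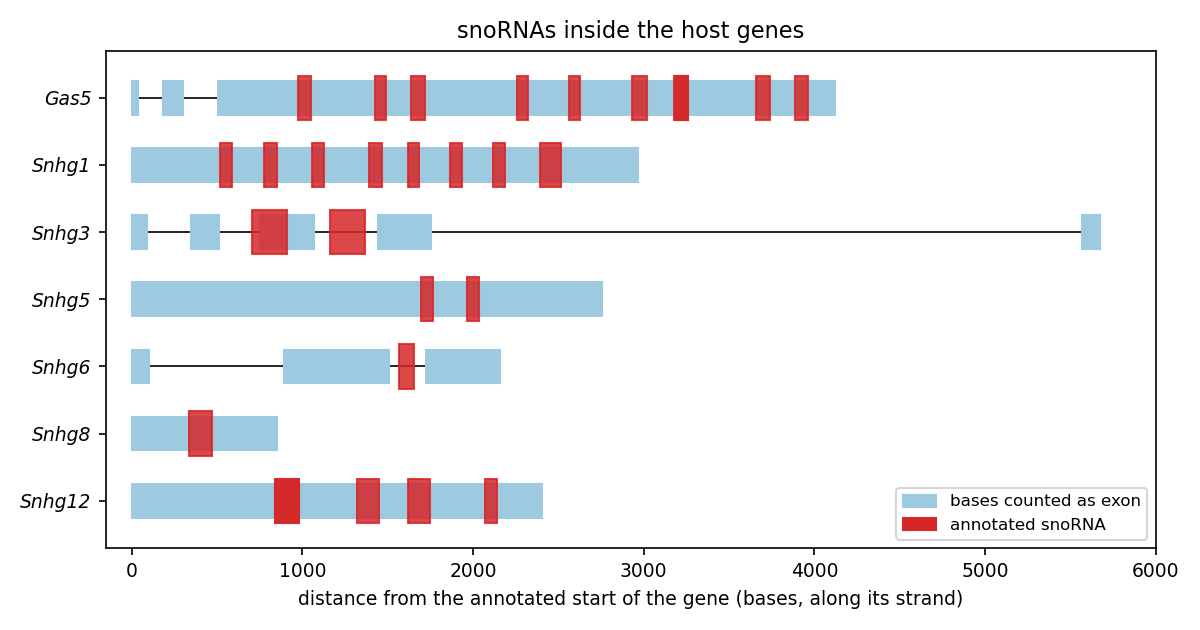
Counted exon bases (light blue) and annotated snoRNAs (red) of the 7 host genes, drawn to scale by distance from the annotated start of each gene in the count table. For Snhg5 the far blocks beyond 6000 bases are not shown. All snoRNAs other than Snora73a, Snora73b and Snord87 lie wholly inside counted exon bases.

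The 7 hosts contain 27 snoRNA positions in GENCODE M21, with 9 in Gas5, 8 in Snhg1, 4 in Snhg12, 2 each in Snhg3 and Snhg5, and 1 each in Snhg6 and Snhg8. The list counts 29 snoRNA genes, since a position in Gas5 and another in Snhg12 have a pair of gene entries each. One snoRNA of each host is printed below as an example of what the intron carries. C/D box snoRNAs (Snord genes) guide 2′-O-methylation, and their C box (searched as TGATGA) and D box (searched as CTGA) are in capitals. H/ACA box snoRNAs (Snora genes) mostly guide pseudouridylation, and their ACA 3 bases before the end is in capitals. In Snord22 the exact C box letters were not found. The sequences are from GENCODE M21 on GRCm38, at chr1:161038082-161038158 (plus strand) for Snord47, chr19:8725866-8725991 (plus strand) for Snord22, chr4:132352322-132352526 (minus strand) for Snora73b, chr9:88521529-88521600 (minus strand) for Snord50a, chr1:9942463-9942549 (minus strand) for Snord87, chr3:123507937-123508066 (minus strand) for Snora24, chr4:132310691-132310764 (plus strand) for Snord99.
Snord47 (Gas5): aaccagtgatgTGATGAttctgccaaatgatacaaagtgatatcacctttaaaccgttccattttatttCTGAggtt
Snord22 (Snhg1): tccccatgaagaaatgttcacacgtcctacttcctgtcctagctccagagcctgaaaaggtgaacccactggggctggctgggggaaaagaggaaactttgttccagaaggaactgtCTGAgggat
Snora73b (Snhg3): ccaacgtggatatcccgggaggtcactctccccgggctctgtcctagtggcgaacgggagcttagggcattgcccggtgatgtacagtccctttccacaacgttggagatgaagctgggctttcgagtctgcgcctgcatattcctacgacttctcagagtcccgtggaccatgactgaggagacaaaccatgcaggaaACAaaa
Snord50a (Snhg5): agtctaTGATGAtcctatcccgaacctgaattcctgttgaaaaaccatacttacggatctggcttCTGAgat
Snord87 (Snhg6): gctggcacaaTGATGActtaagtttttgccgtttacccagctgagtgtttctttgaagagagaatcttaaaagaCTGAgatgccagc
Snora24 (Snhg8): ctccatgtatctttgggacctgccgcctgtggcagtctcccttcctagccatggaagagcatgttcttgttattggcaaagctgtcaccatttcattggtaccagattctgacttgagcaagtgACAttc
Snord99 (Snhg12): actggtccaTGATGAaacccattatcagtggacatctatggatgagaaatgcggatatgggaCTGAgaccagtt
Of these 29 genes, 26 lie wholly inside counted exon bases of the host, and all 26 had 0 counts in every library. The 3 others had counts. Snord87, in an intron of Snhg6, gave 2, 1 and 2 counts for sham 1 to 3 and 4, 3 and 7 for VSG 4 to 6, too few to pass the filter for testing. Over all snoRNA genes of the table, 1 of 135 lying wholly inside exons of another gene on the same strand had any count, against 169 of 1337 outside such exons, or 0.741% and 12.6%. Of 35 that lie partly inside such exons, as Snora73a does, 22 had a count (62.9%). How reads over more than 1 gene were treated is not stated in the sources used here. The zeros therefore say nothing on whether the snoRNAs were present, and mature snoRNAs carry no poly(A) tail. Whether reads over a snoRNA were counted for its host is not known either.

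The starts of the host genes are shown because snoRNA host genes often share the TOP tract with ribosomal protein genes, and a TATA box fixes the start site of many genes. The windows below are from RefSeq on GRCm38.p6 and run from 50 bases before to 50 bases after the annotated start. Capitals mark TATA where it lies between 40 and 20 bases before the start, and a pyrimidine run of at least 5 bases (C or T) that begins with C within 10 bases of the start. They lie at chr19:5802623-5802722 (minus strand) for Malat1, chr1:161035116-161035215 (plus strand) for Gas5, chr19:8723437-8723536 (plus strand) for Snhg1, chr4:132353637-132353736 (minus strand) for Snhg3, chr9:88522848-88522947 (minus strand) for Snhg5, chr3:123508287-123508386 (minus strand) for Snhg8, chr4:132308628-132308727 (plus strand) for Snhg12. Neat1 and Snhg6 had no entry.
Malat1: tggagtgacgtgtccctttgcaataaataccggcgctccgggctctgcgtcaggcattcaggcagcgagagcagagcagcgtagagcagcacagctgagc
Gas5: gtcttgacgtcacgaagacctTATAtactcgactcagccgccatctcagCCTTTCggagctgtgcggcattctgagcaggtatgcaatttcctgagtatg
Snhg1: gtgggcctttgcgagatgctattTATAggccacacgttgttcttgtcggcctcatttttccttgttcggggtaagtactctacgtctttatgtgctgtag
Snhg3: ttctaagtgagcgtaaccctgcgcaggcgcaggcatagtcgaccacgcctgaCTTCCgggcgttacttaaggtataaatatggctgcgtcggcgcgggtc
Snhg5: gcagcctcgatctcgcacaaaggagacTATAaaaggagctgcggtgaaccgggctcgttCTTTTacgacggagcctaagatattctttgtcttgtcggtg
Snhg8: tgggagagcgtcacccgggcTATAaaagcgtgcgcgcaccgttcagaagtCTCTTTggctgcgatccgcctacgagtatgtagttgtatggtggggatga
Snhg12: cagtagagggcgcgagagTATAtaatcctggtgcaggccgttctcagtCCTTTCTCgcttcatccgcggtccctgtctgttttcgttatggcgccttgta
Each of Gas5 (at the start printed), Snhg5, Snhg8 and Snhg12 holds both features, Snhg1 holds only TATA, Snhg3 only the run, and Malat1 neither. The other RefSeq start of Gas5 holds neither. In all, 5 of the 8 windows of these 7 genes had TATA, 5 of 8 had the run and 4 of 8 had both. Of 32851 promoters of all genes, 5.49% had TATA, 30.7% had the run and 1.79% had both. Of 78 promoters of ribosomal protein genes, 8.97% had TATA, 55.1% the run and 7.69% both. Among the 4 genes with both, Gas5 and Snhg5 rose, and Snhg8 and Snhg12 did not pass the test. A match to these letters is no measurement of initiation or of factor binding.

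**Figure D5:**
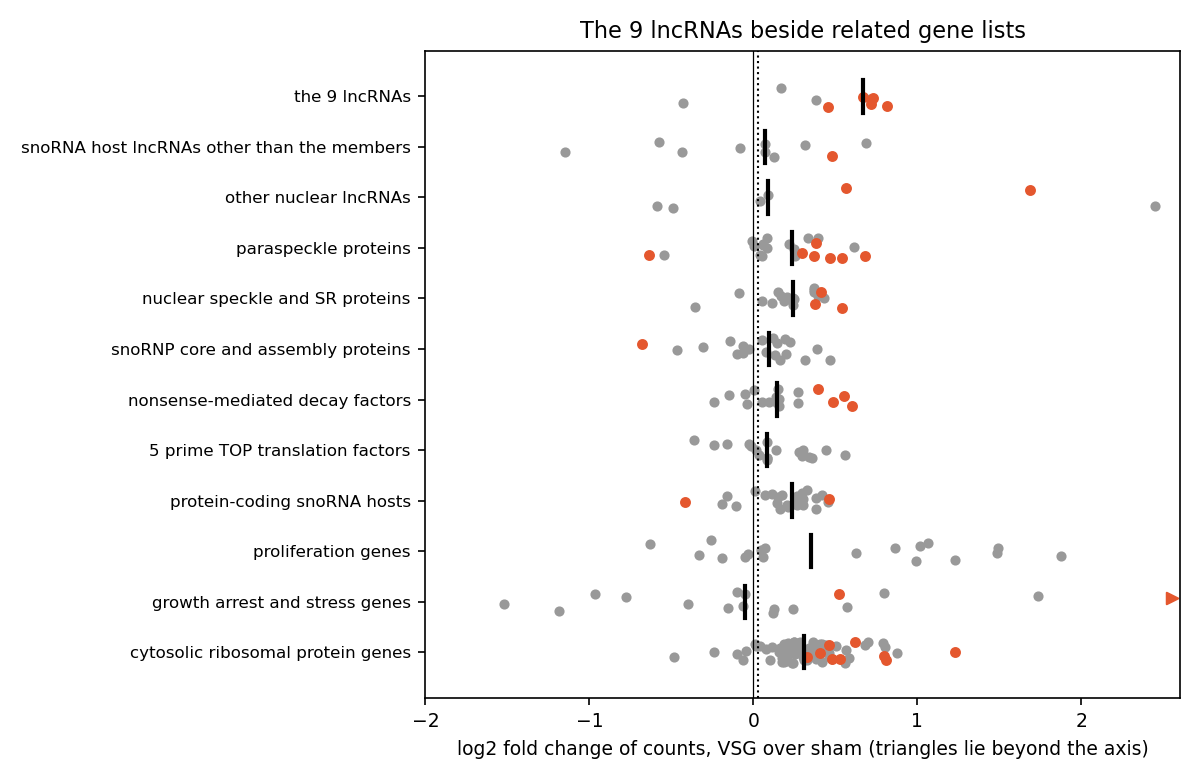
Log2 fold change, VSG over sham, of the 9 lncRNAs and of the genes in 11 related lists, with orange for an adjusted p under 0.05, a black bar for the median of each list and a dotted line for the median of all genes tested. The 9 lncRNAs have a median of 0.67, and the lists lie between -0.05 and 0.35. A triangle at the right edge is Asns at 4.85.

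Other lncRNAs of the same kinds were compared with the 9 genes. Of 15 genes listed as other snoRNA host lncRNAs, 12 were found in the deposited table by symbol and 10 were tested. Snhg4, Snhg7 and Snhg16 were not found under these symbols. Among the 10 tested, 1 rose (10.0%, against 10.3% of all lncRNAs tested), none fell, and the median log2 fold change was 0.07. The tested genes include Snhg11, which GENCODE M21 annotates as protein-coding, and Mir17hg, which hosts a microRNA cluster. Snhg17 rose from 14.6 ± 0.163 to 20.3 ± 1.94 CPM (SD, n = 3 each, log2 fold change 0.48, SE 0.106, adjusted p = 0.0325). Among the fits without 1 library, its call was kept only without VSG 5 (adjusted p 0.0432) and lost in the others (0.0715 to 0.129). It was also lost with total counts (0.198) and with every gene of at least 1 count tested (0.0629). Zfas1, another host of C/D box snoRNAs, had a log2 fold change of 0.31 (adjusted p = 0.146), and Snhg11 measured 8.24, 21.4 and 16.4 CPM in sham against 4.62, 4.83 and 11.3 CPM after VSG, with an adjusted p of 0.135 and a log2 fold change of -1.15. Of 10 other nuclear lncRNAs, 7 were tested and 2 rose (28.6%). Tug1, a widely expressed nuclear lncRNA, measured 54.8, 46.0 and 48.6 CPM in sham and 73.6, 69.4 and 78.3 CPM in VSG livers with an adjusted p of 0.0204 and a log2 fold change of 0.57. Kcnq1ot1, the imprinted antisense RNA of the Kcnq1 domain, measured 7.90, 6.12 and 3.69 CPM in sham and 27.1, 11.1 and 18.9 CPM in VSG livers with an adjusted p of 0.0354 and a log2 fold change of 1.69. The Tug1 call was lost without sham 2 (adjusted p 0.0628), sham 3 (0.103) or VSG 6 (0.0814) and with total counts (0.115). That of Kcnq1ot1 was kept only without VSG 5 (0.0159) among the fits without 1 library, and was lost with limma-voom (0.0526). Firre, a chromatin-associated lncRNA, measured 41.4 to 44.9 CPM in all 6 libraries (log2 fold change 0.04, adjusted p = 0.754).

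Among 22 paraspeckle proteins, the partners of Neat1, 6 rose, 1 fell and 15 did not pass, with a median log2 fold change of 0.23. Sfpq, a core paraspeckle protein, rose from 87.9 ± 8.46 to 121.6 ± 10.5 CPM (SD, n = 3 each, log2 fold change 0.47, adjusted p = 0.0449). Hnrnpa1 (log2 fold change 0.68, adjusted p = 0.0269) and Taf15 (0.54, adjusted p = 0.0321), both RNA-binding proteins, also rose. Smarca4, the ATPase of the SWI/SNF remodeling complex, fell by 0.64 on the log2 scale (adjusted p = 0.0101). Nono (0.06, adjusted p = 0.616) and Pspc1 (-0.54, adjusted p = 0.0584), listed with Sfpq, did not pass. With total-count scaling 0 of the list rose and 2 fell. Of 20 nuclear speckle and SR splicing proteins, the neighbors of Malat1 in speckles, 3 rose (Tra2a, Clk4 and Acin1, by log2 fold changes of 0.54, 0.41 and 0.37) and none fell, with a median of 0.24. That count was 0 without sham 1, sham 2, sham 3 or VSG 6, and with total-count scaling 0 rose and 1 fell.

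Proteins that act on the hosts and their snoRNAs were counted as well. Of 20 snoRNP core and assembly proteins, none rose and 1 fell. This was Nhp2, a core protein of H/ACA particles, which dropped from 13.6 ± 0.804 to 8.47 ± 0.818 CPM (SD, n = 3 each), with a log2 fold change of -0.68 and an adjusted p of 0.0211. Of 18 nonsense-mediated decay factors, 4 rose and none fell, with a median log2 fold change of 0.14. The 3 largest were Upf2 (0.60, adjusted p = 0.0346), Pnrc2 (0.55, adjusted p = 0.0354) and Upf3b (0.48, adjusted p = 0.0286), adaptors of the Upf1 helicase or links to decapping. Under total-count scaling none of the 18 passed. In the main analysis the share called was 5.0% of the snoRNP list and 22.2% of the decay factors, against 14.7% of all genes tested.

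Genes that share the TOP start with the hosts were measured as well. Of 87 cytosolic ribosomal protein genes, 77 were tested, 9 rose and none fell, with a median log2 fold change of 0.31. Among the 9 called genes, the largest changes were in Rps10 (1.23, adjusted p = 0.0197), Rps12 (0.81, adjusted p = 0.0325) and Rpl12 (0.80, adjusted p = 0.0331), all at means under 5 CPM. With total-count scaling 1 of the family rose and 1 fell. Counts of this family are uncertain. The mean count per library ran from 0.167 to 7417 with a median of 237, and 34 of 87 genes had under 100 counts. The family has many near-identical pseudogenes, and the treatment of reads that match several places is not stated. Of 19 other TOP translation factors, 0 passed with edgeR in the main analysis, and DESeq2 called 3. Of 26 protein-coding snoRNA hosts, 1 rose (Rpl13a, 0.46, adjusted p = 0.0470) and 1 fell (Nfs1, -0.42, adjusted p = 0.0416). The share called was 11.7% of the ribosomal protein genes tested and 7.69% of the coding snoRNA hosts, against 14.7% of all genes tested.

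Gas5 and the Snhg genes are often read beside growth state. Of 18 proliferation genes, 0 passed with edgeR and 0 with DESeq2, at a median log2 fold change of 0.35, and without VSG 5 the count was 2. Of 17 growth arrest and stress genes tested, 2 rose and none fell (11.8% called, against 14.7% of all genes tested), with a median of -0.05. With total-count scaling 1 rose and 1 fell. Asns, asparagine synthetase and a target of the amino acid response, measured 3.62, 0.640 and 0.798 CPM in sham and 59.7, 56.4 and 33.3 CPM in VSG livers with an adjusted p of 0.0101 and a log2 fold change of 4.85 (SE 0.644). Atf4, the transcription factor of that response, rose from 61.2 ± 4.01 to 87.8 ± 14.0 CPM (SD, n = 3 each, log2 fold change 0.52, adjusted p = 0.0463).

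The nearest protein-coding genes were examined for each lncRNA, and those described here follow. Frmd8, on one side of the Malat1 and Neat1 pair, had a log2 fold change of -0.17 (adjusted p = 0.432), while Malat1 rose. Slc3a2, whose nearest end lies 105 bases from the start of Snhg1, had means of 39.5 ± 4.86 CPM (sham) and 40.5 ± 7.97 CPM (VSG, SD, n = 3 each), with an adjusted p of 0.898 and a log2 fold change of 0.04. Zbtb37, which overlaps the Gas5 gene span, had a log2 fold change of 0.36 (adjusted p = 0.111). Syncrip, an hnRNP protein near Snhg5, rose by 0.35 (SE 0.0811, adjusted p = 0.0365), and Tcf24, near Snhg6, rose by 1.92 (SE 0.473, adjusted p = 0.0413) from 0.726 ± 0.129 to 2.77 ± 1.42 CPM. The Syncrip call was lost in all 6 fits without 1 library (adjusted p 0.0610 to 0.157) with total counts (0.357) and with every gene of at least 1 count tested (0.130), and that of Tcf24 in 5 of 6, all but the one without VSG 6 (0.0361), and with total counts (0.0551) and limma-voom (0.0829). The Snhg6 neighbor on the other side, Sgk3, had 0.38 (adjusted p = 0.0854). Trnau1ap, beside both Snhg12 and Snhg3, had -0.16 (adjusted p = 0.323), and Wdr74, Phactr4, Zfp949, Rcc1 and Serpinc1 had log2 fold changes between 0.03 and 0.27 with none passing. Mcmdc2, Prss12, Ndst3 and Rab42 had too few counts to be tested.

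The genes most like 4 of the members in profile were found over the 6 libraries by the root mean square difference of centered log2 CPM. Gas5 had the closest matches, Braf (0.0241), Kansl1l (0.0353) and Rsbn1l (0.0360). Braf measured 39.3, 38.7 and 33.1 CPM in sham and 46.7, 51.2 and 52.1 CPM in VSG livers. It was picked for this likeness. Malat1 was nearest to Adam23 (0.0825), Acnat2 (0.0861) and Foxa3 (0.0889). Snhg1 was nearest to Gtf2ird1 (0.0655), Camk1d (0.0693) and Snapc3 (0.0949), and Neat1 to Pmp22 (0.106), Smad7 (0.152) and Gpx3 (0.158). Among the 9 members, Snhg5 and Snhg6 were the closest pair (0.0932), and Neat1 and Snhg3 the farthest (0.872). All these profiles come from the same 6 libraries and include the difference between the groups.

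Markers of 9 cell types were summed in each library. Hepatocyte markers summed to 81580 to 123105 CPM (sham) and 104304 to 133582 CPM (VSG), none of the 10 was at 0 in either group, and 1 of 10 was higher. This was Fgb, the fibrinogen beta chain and an acute phase gene (log2 fold change 2.36, adjusted p = 0.00783). Neutrophil markers summed to 7.67 to 22.9 CPM (sham) and 164 to 1901 CPM (VSG), and 12 of 12 were higher. Macrophage markers summed to 373 to 838 CPM against 812 to 2383 CPM with 4 of 10 higher, and B cell markers to 23.1 to 29.9 CPM against 150 to 196 CPM with 2 of 7 tested higher. Stellate cell markers summed to 706 to 1025 CPM against 389 to 650 CPM, with 1 of 8 lower, and cholangiocyte markers to 57.9 to 255 CPM against 73.6 to 200.0 CPM, with 1 of 5 tested higher. Markers of endothelial cells (286 to 338 against 293 to 364 CPM), T and NK cells (10.9 to 12.5 against 9.62 to 19.6 CPM) and erythroid cells (135 to 200.2 against 187 to 291 CPM) had none that passed. Within the VSG group, the neutrophil sum was 1901, 164 and 888 CPM in VSG 4, 5 and 6, while Malat1 measured 687, 643 and 757 CPM and Snhg6 9.14, 9.15 and 8.97 CPM in the same libraries. Neat1 was highest in VSG 4, which also had the highest macrophage and neutrophil sums, but VSG 6 had the lowest Neat1 of the group with the middle marker sums. The part of these cells in the changes of the 9 lncRNAs was not tested.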

How the data were processed

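Liver poly(A) RNA from 3 sham-operated and 3 VSG-operated mice was sequenced by the authors after strand-specific library preparation. Per the labels and the submitters' processing notes, reads were checked with FastQC 0.10.1, aligned with STAR 2.6.0 to mm10 and counted with featureCounts 2.0.3. The deposited counts were raw reads per gene, not normalized, with 1 library per sample. Which annotation release and strand setting were used, and how multi-mapping reads or reads over overlapping genes were handled, is not given in the sources used here. The deposited table also holds the summed exon length of each gene, which entered FPKM only.

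Of 55385 gene identifiers, 54487 matched GENCODE M21 (GRCm38) with their version, 55144 without it and 241 did not, and symbols were taken from this match. Groups were taken from the sample titles. After filterByExpr (10 as the minimum count and 15 as the minimum total), edgeR 4.0.16 (R 4.3.3) was run using TMM factors (0.897 to 1.15), glmQLFit and glmQLFTest with group as the only term, and the Benjamini-Hochberg adjustment over all 14454 genes. Adjusted p-values come from edgeR except where another tool is given. The standard error is the log2 fold change divided by the square root of F. CPM values use the totals of tested genes and TMM factors. Each p-value sets the difference between the groups against the spread among libraries, each from 1 animal. In edgeR this spread is estimated for each gene with information shared over all genes. With 3 against 3 libraries, an exact permutation test cannot go below 0.1, so none was used. The test was checked on simulated counts. At counts of 3 or fewer, no fold was drawn.

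The 9 lncRNAs, the 11 lists and the markers were chosen with earlier results of these data known. Named genes were all 9 lncRNAs, up to 3 called genes per list and direction by the size of the log2 fold change, the nearest coding gene on each side (some of these are not reported here), snoRNAs with at least 10 counts in sum, and for Malat1, Neat1, Gas5 and Snhg1 the 3 genes of at least 5 mean CPM with the most similar profile (log2 CPM, prior count 2). Zfas1, Snhg11, Mir17hg, Firre, Nono, Pspc1 and Fgb were named after their values were seen. The 14 alternatives were DESeq2 1.42.0, limma-voom 3.58.1, RLE and upper quartile factors, total counts, no filter beyond 1 count, a minimum of 10 counts in each library, 2 as prior count, and 6 fits that each left out 1 library.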

Additional observations from a re-analysis of the deposited data

How the results depend on the processing

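No paired analysis was possible because the sample numbers are 1 to 3 in sham and 4 to 6 in VSG libraries, so the groups share none. Of 616 single-gene values under the alternatives, 430 kept the direction and side of the threshold, 172 kept the direction and lost the call, 1 gained a call and 13 changed sign. The sign changes were Snhg3 without sham 2 (0.12), Serpinc1 with total counts (-0.0997), with every gene of at least 1 count (-0.0050), without sham 1 (-0.0600), sham 3 (-0.0230), VSG 5 (-0.0640) or VSG 6 (-0.0082), Slc3a2 with total counts (-0.0840), without sham 1 (-0.0542), VSG 4 (-0.0696) or VSG 5 (-0.0448), Rcc1 without VSG 4 (-0.0705) and Phactr4 with total counts (-0.0336), all log2 fold changes of genes without a call. Without 1 library, log2 fold changes ran from -0.67 to 0.12 for Snhg3, -0.06 to 0.15 for Serpinc1, -0.07 to 0.19 for Slc3a2, -0.07 to 0.49 for Rcc1 and 0.02 to 0.15 for Phactr4.

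With 1 library left out, the count of called genes ran from 159 (without sham 3) to 2732 (without VSG 5), against 2118 with all, and that of the 9 lncRNAs from 0 to 3. For the lists it ran from 0 to 1 for other snoRNA host lncRNAs, 0 to 2 for other nuclear lncRNAs, 0 to 3 for paraspeckle proteins, 0 to 3 for nuclear speckle and SR proteins, 0 to 1 for snoRNP proteins, 0 to 2 for nonsense-mediated decay factors, 0 to 1 for protein-coding snoRNA hosts, 0 to 2 for proliferation genes, 0 to 3 for growth arrest and stress genes, 0 to 5 for cytosolic ribosomal protein genes, and was 0 in all such fits for the TOP translation factors.

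Under DESeq2, 3270 genes were called, with 6 speckle and SR proteins (all higher), 2 snoRNP proteins (both lower), 3 TOP translation factors (2 higher, 1 lower) and 5 growth arrest and stress genes (4 higher, 1 lower). With total counts, 1 of the 9 lncRNAs and 1 other nuclear lncRNA were called, both higher, with 0 other snoRNA hosts and 0 decay factors. The calls of 2 paraspeckle proteins, 1 speckle or SR protein, 2 snoRNP proteins, 1 TOP factor and 1 coding snoRNA host were all lower. The 2 ribosomal protein genes and the 2 growth arrest and stress genes called were 1 higher and 1 lower in each list. This scaling changed the called genes from 981 higher and 1137 lower to 486 higher and 1512 lower. Keeping every gene with at least 1 count gave calls for 3 of the 9 lncRNAs, 1 speckle or SR protein and 2 decay factors, all higher, 0 other snoRNA hosts, 3 paraspeckle proteins (2 higher, 1 lower), 1 coding snoRNA host (lower) and 4 ribosomal protein genes (3 higher, 1 lower). With limma-voom, 1 other nuclear lncRNA and 1 growth arrest or stress gene were called, both higher. The count of lncRNAs without overlap was 6 with TMM, RLE and upper quartile factors and 5 with total counts. The cause of these differences was not tested. At the depth of these libraries, the 3 host snoRNA genes with any reads had too few counts to be tested.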
